A study of Mus musculus with 2 samples.

Results

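Nuclear receptors are transcription factors that bind DNA and that many hormones, lipids and other small ligands switch on or off. Bound receptors recruit coactivators such as the NCOA proteins or corepressors such as NCOR1, and so raise or lower the transcription of nearby genes. In the brain this family includes the glucocorticoid receptor of the stress response, the thyroid hormone receptors, and RORα, which is best known there for the development of cerebellar Purkinje cells.

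The members were taken by gene name from a list of 37 genes, 33 of them receptors and 4 of them coregulators. Of these, 34 had a row among the 13381 genes of the deposited gene table. The vitamin D receptor gene Vdr, the estrogen receptor gene Esr1 and the PPARα gene Ppara had none. That table holds genes whose larger value is above 0.5 FPKM (fragments per kilobase of transcript, scaled to the size of the library). For Esr1, 1 transcript was listed elsewhere, Esr1-004, at 0 FPKM in the miR-7KD-titled library and at 0.515 FPKM in the WT-titled library.

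The series compared brain RNA of 1 library titled miR-7KD (animal 3) and 1 library titled WT (animal 7), from C57BL/6J mice of 6 to 8 weeks. The question was which genes differ when the microRNA miR-7 is deficient during lipopolysaccharide (LPS) inflammation of the brain. Mice had received 2.5 mg/kg LPS into the peritoneum, and brains were taken after 12 h. The treatment is given in the methods and not in the sample labels, the methods give an older age range than the labels, and the extraction text of the labels names retinas. None of the 8 photoreceptor marker genes looked up had a row in the gene table.

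The labels of these libraries contradict each other. The animal whose title reads miR-7KD is entered as wild type under genotype, and the animal whose title reads WT is entered as miR-7 KD. The free-text description calls both wild type. So each library is called by its title, and a direction holds for the titles only. No source used here says how the miR-7-deficient mice were made, and no gene of the tables measures mature miR-7. Each title has 1 library, said to represent 3 repeats, so no difference below has a replicate check or a test. An effect of genotype and a difference between 2 animals cannot be told apart. Fewer cells of a type and less RNA per cell cannot be told apart either in bulk brain RNA.

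The mature miR-7 sequences are shown because the study followed up Rora, the gene of RORα, as a target of a miR-7 strand. The sequences are those of RefSeq on GRCm38.p6, with the seed (bases 2 to 8) in capitals. The first pair shares the seed of the 5p strands, the next pair shares that of most 3p strands, and the last one differs from those in its seed.
mmu-miR-7a-5p: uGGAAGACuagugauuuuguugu
mmu-miR-7b-5p: uGGAAGACuugugauuuuguuguu
mmu-miR-7a-2-3p: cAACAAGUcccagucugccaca
mmu-miR-7b-3p: cAACAAGUcacagccagccuca
mmu-miR-7a-1-3p: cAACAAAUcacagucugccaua

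The corresponding seed matches in a transcript read GTCTTCC for the 5p strands, ACTTGTT for the 3p strands of Mir7-2 and Mir7b, and ATTTGTT for that of Mir7-1. They were searched on the sense strand of the annotated 3′-UTR of each member. The matches most relevant to the members below are printed with 11 bases on either side and the match in capitals. All of these lie in 3′-UTR exons on GRCm38. Rora held ACTTGTT at 3 places, and the longer of its listed transcripts is the one that holds all 3. Rora also held ATTTGTT at 1 place, not printed here, and no GTCTTCC, so its matches are to 3p strands only.
Rora, chr9:69379172-69379200, plus strand: atcaaagctgaACTTGTTttgctcatgca
Rora, chr9:69383285-69383313, plus strand: tcgatcgaatcACTTGTTattgttgagag
Rora, chr9:69385756-69385784, plus strand: tttaacaatatACTTGTTtccaaagtaca
Nr1d2, chr14:18205136-18205164, minus strand: ttgtagttttaACTTGTTgctacaggatt
Ncoa2, chr1:13142015-13142043, minus strand: caaaaagaaatACTTGTTtctaaattgtt
Ncoa2, chr1:13140567-13140595, minus strand: atttaaaacatACTTGTTttgtattaaat
Nr2c1, chr10:94196424-94196452, plus strand: tagactcctcaGTCTTCCacaccaatatg

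Most receptors stood at similar levels in both libraries. Thra, the gene of thyroid hormone receptor α, was the most abundant member in both. Over the 34 members with a row, levels ran from 0.741 to 87.8 FPKM in the miR-7KD-titled library and from 0.556 to 68.6 FPKM in the WT-titled library. The median member stood at 4.27 FPKM under the miR-7KD title and 4.78 FPKM under the WT title, near the median of all listed genes, 4.69 FPKM under the miR-7KD title and 4.63 FPKM under the WT title. The order of the members was much alike in both libraries (Spearman rho 0.926 across 34 genes, which are no replicates). Thra alone made up 33.3% of the summed FPKM of the receptor members in the miR-7KD-titled library and 28.2% in the WT-titled library.

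**Figure D1:**
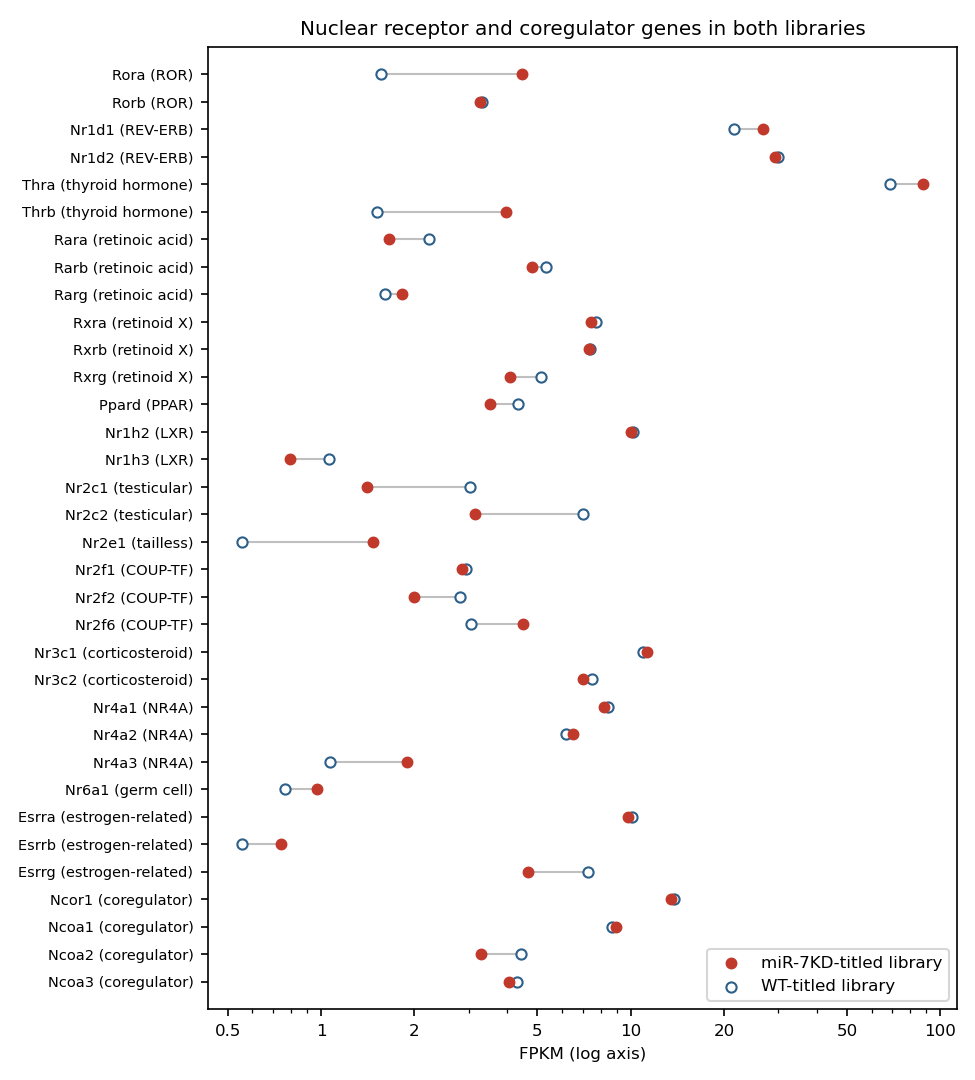
Level of each of the 34 members in FPKM on a log axis, with a point for the miR-7KD-titled library and a point for the WT-titled library. For most members the points nearly coincide, and Rora, Thrb, Nr2e1, Nr2c1 and Nr2c2 are those whose points lie at least 2-fold apart.

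Of the 34 members, 32 reached 1 FPKM in at least 1 library. Of these 32, 3 were at least 2-fold higher in the miR-7KD-titled library (9.38%, against 6.01% of all 11969 genes at that level). Lower by at least 2-fold were 2 members (6.25%, against 5.58% of all genes). Together these 5 members made up 15.6%, close to the 11.6% of all genes. The log2 ratio is that of the miR-7KD-titled library over the WT-titled library after 0.1 FPKM was added to each. Its median over the 32 members was −0.04, beside −0.01 over all genes, with 11 members above 0 and 21 below. Within 0.5 of 0 lay 75% of the members and 76.6% of all genes. When 1 FPKM rather than 0.1 FPKM was added, Rora stayed past 2-fold and the others did not (Thrb 0.98, Nr2e1 0.67, Nr2c2 −0.95, Nr2c1 −0.74). The 27 members under the 2-fold threshold ran from −0.64 (Esrrg) to 0.77 (Nr4a3).

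**Figure D2:**
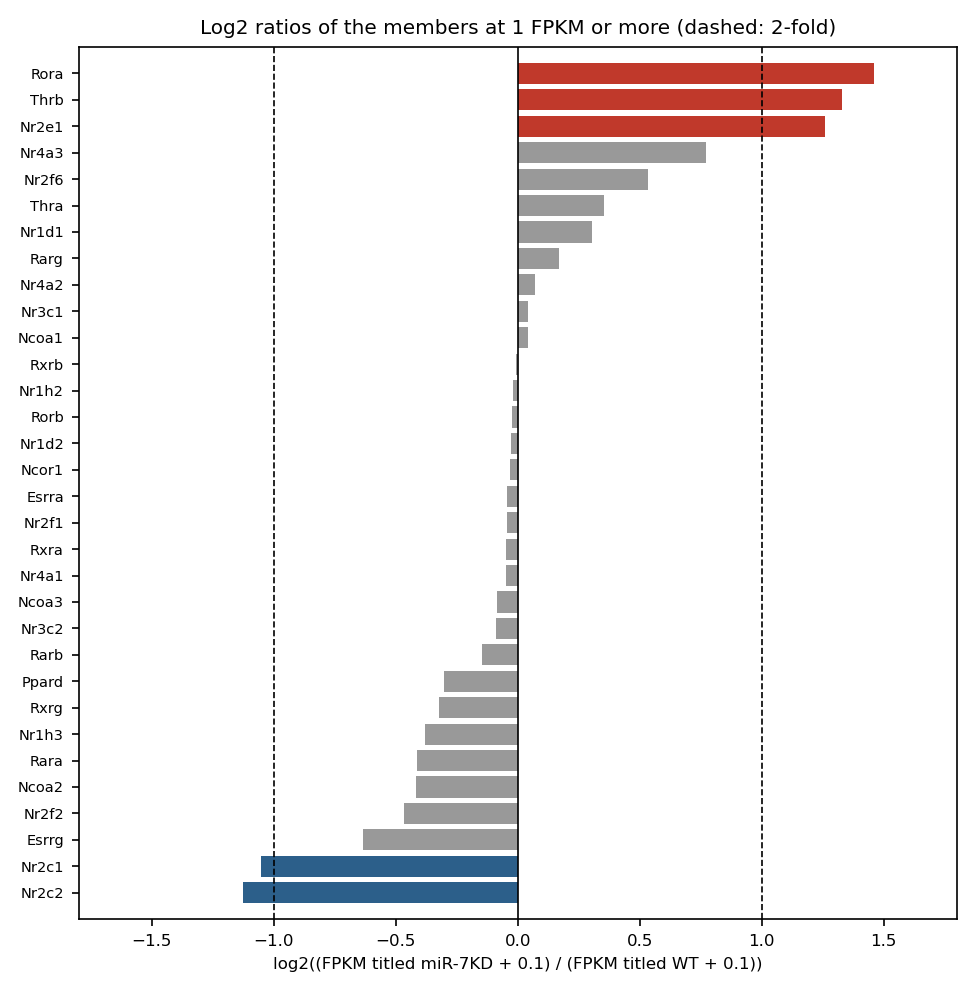
Log2 ratio of each of the 32 members at 1 FPKM or more, the miR-7KD-titled library over the WT-titled library, with dashed lines at 2-fold. Rora, Thrb and Nr2e1 lie above the upper line at 1.46, 1.33 and 1.26, and Nr2c1 and Nr2c2 lie below the lower line at −1.05 and −1.13.

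Rora, on chromosome 9 (plus strand), was at 4.46 FPKM in the miR-7KD-titled library, against 1.56 FPKM in the WT-titled library. This was a ratio of 2.86 and a log2 ratio of 1.46, at the 96.3rd percentile of all genes at 1 FPKM or more. The study took Rora from the genes that were higher in this comparison before following it up, so the value is a description and not independent evidence. Among the 34 members Rora was 17th by level in the miR-7KD-titled library and 28th in the WT-titled library. Its closest relative Rorb, a receptor of sensory and cortical circuits that shares the DNA element of RORα, was at 3.26 FPKM under the miR-7KD title and 3.32 FPKM under the WT title. So Rora stood above Rorb in the miR-7KD-titled library (1.37 times its level) and below it in the WT-titled library (0.470 times).

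The difference in Rora lay mostly in 1 of its 2 listed transcripts. Rora-001, with 11 exons and a 3′-UTR of 9285 bases, was at 4.56 FPKM in the miR-7KD-titled library and 1.15 FPKM in the WT-titled library, a log2 ratio of 1.90. Rora-002, with 10 exons and a 3′-UTR of 848 bases, was at 3.04 FPKM under the miR-7KD title and 2.64 FPKM under the WT title, a log2 ratio of 0.20. Rora-002 was thus the more abundant transcript in the WT-titled library and the less abundant one in the miR-7KD-titled library. Of the 3 ACTTGTT matches printed above, the first lies in both transcripts and the others in Rora-001 only. Summed over both transcripts, Rora had 7.60 FPKM under the miR-7KD title against 3.79 FPKM under the WT title, a log2 ratio of 0.98, which is just under the 2-fold threshold. The deposited gene value is below this transcript sum in both libraries, as it is for most genes with several listed transcripts. Unannotated single-exon entries inside the gene were all at 0 in the WT-titled library. If added, they would bring Rora to 13.2 FPKM under the miR-7KD title against 1.56 FPKM under the WT title. The log2 ratio would then be 3.00. These entries are separate stretches, each scaled to its own length, so this sum is not a level of Rora transcripts.

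The REV-ERB receptors, which repress transcription at the same DNA elements that ROR proteins activate, were among the most abundant members. Nr1d1, the gene of REV-ERBα, was at 26.7 FPKM in the miR-7KD-titled library and 21.6 FPKM in the WT-titled library. Nr1d2, the gene of REV-ERBβ, was at 29.3 FPKM under the miR-7KD title and 29.9 FPKM under the WT title. Together they reached 56.1 FPKM under the miR-7KD title and 51.5 FPKM under the WT title, far above the sum of both ROR genes at 7.72 FPKM under the miR-7KD title and 4.87 FPKM under the WT title. Nr1d2 carries the same ACTTGTT match as Rora in its 3′-UTR, with nearly the same level in both libraries.

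Of 15 clock genes that ROR and REV-ERB proteins are known to act on or work with, none was at least 2-fold higher and 2 were lower (13.3% in either direction, against 11.6% of all genes), with a median log2 ratio of 0.03. Arntl, the gene of BMAL1 and a textbook target of RORα, was at 3.33 FPKM in the miR-7KD-titled library and 3.38 FPKM in the WT-titled library. The lower genes were Hlf, a PAR-bZIP activator, at 6.96 FPKM under the miR-7KD title and 32.7 FPKM under the WT title, and Nfil3, a repressor of the same DNA element, which was listed at 1e-06 FPKM under the miR-7KD title and 5.10 FPKM under the WT title. Dbp, a close relative of Hlf, was at 32.7 FPKM in the miR-7KD-titled library and 25.4 FPKM in the WT-titled library. Of 5 Purkinje cell genes known as RORα targets, 1 was lower (20%, against 11.6% of all genes) and none higher. Their median log2 ratio was −0.34. The lower gene was Pcp4, a calmodulin-binding peptide also made outside the cerebellum, at 80.6 FPKM in the miR-7KD-titled library and 366 FPKM in the WT-titled library. Pcp2, found almost only in Purkinje cells and retina, was at 16.3 FPKM under the miR-7KD title and 20.7 FPKM under the WT title.

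Thyroid hormone receptors bind the hormone T3 in the nucleus. Thra was at 87.8 FPKM in the miR-7KD-titled library and 68.6 FPKM in the WT-titled library. Thrb, on chromosome 14 (plus strand), was at 3.97 FPKM in the miR-7KD-titled library, against 1.52 FPKM in the WT-titled library, a ratio of 2.61 and a log2 ratio of 1.33. Thra therefore exceeded Thrb 22.2-fold in the miR-7KD-titled library and 45.2-fold in the WT-titled library. All 3 listed transcripts of Thrb were on the same side. Thrb-001 was at 1.60 FPKM under the miR-7KD title and 0.0493 FPKM under the WT title, Thrb-002 at 1.46 FPKM under the miR-7KD title and 0.806 FPKM under the WT title, and Thrb-201 at 1.63 FPKM under the miR-7KD title and 1.01 FPKM under the WT title. Thrb-002 and Thrb-201 did not reach 2-fold, and the sum of the 3 transcripts had a log2 ratio of 1.28.

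The transcripts of Thra lay on both sides of equal levels. Thra-001 was at 148 FPKM in the miR-7KD-titled library and 107 FPKM in the WT-titled library. Thra-003 was at 13.5 FPKM under the miR-7KD title and 18.5 FPKM under the WT title, and Thra-007 at 0.226 FPKM under the miR-7KD title and 1.29 FPKM under the WT title. The annotated spans of Thra and Nr1d1 share 1075 bases on opposite strands of chromosome 11. No source used here gives the strandedness of the libraries, so reads there cannot be assigned to either gene with certainty. Of 8 listed genes of thyroid hormone supply and response, 1 was at least 2-fold lower and none higher (12.5%, against 11.6% of all genes). Their median log2 ratio was 0.16. The lower one was Thrsp, a lipid-synthesis regulator induced by T3, at 5.37 FPKM in the miR-7KD-titled library and 13.1 FPKM in the WT-titled library.

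The testicular receptors TR2 and TR4 are orphan receptors, proteins with no established hormone, that bind DNA as a pair. Both of their genes were lower in the miR-7KD-titled library. Nr2c1, the gene of TR2 on chromosome 10, was at 1.41 FPKM, against 3.03 FPKM in the WT-titled library, a log2 ratio of −1.05. Nr2c2, the gene of TR4 on chromosome 6, was at 3.15 FPKM, against 7.00 FPKM in the WT-titled library, a log2 ratio of −1.13. Their sum was 4.56 FPKM in the miR-7KD-titled library and 10.03 FPKM in the WT-titled library. No other class of the family with more than 1 listed gene had every gene past 2-fold.

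By transcript, Nr2c2-001 was at 5.48 FPKM in the miR-7KD-titled library and 12.7 FPKM in the WT-titled library. Nr2c1-001 was at 1.35 FPKM under the miR-7KD title and 3.55 FPKM under the WT title, while the minor Nr2c1-003 went the other way at 0.566 FPKM under the miR-7KD title and 0.240 FPKM under the WT title. An unannotated 13-exon transcript on the strand of Nr2c1 was at 2.08 FPKM in the miR-7KD-titled library and 1.38 FPKM in the WT-titled library. With it added, the log2 ratio of Nr2c1 shrank to −0.33. The values of Nr2c1 therefore depend on which transcripts count as the gene.

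Nr2e1, the gene of the tailless receptor that keeps neural stem cells dividing in the adult forebrain, was at 1.47 FPKM in the miR-7KD-titled library, against 0.556 FPKM in the WT-titled library. This was a ratio of 2.64 and a log2 ratio of 1.26. Its single listed transcript, Nr2e1-001, was at 1.66 FPKM under the miR-7KD title and 0.613 FPKM under the WT title. Both values are low, and the gene was the least abundant of the 34 members in the WT-titled library.

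The COUP-TF receptors pattern the cortex during development. Nr2f1 was at 2.85 FPKM in the miR-7KD-titled library and 2.94 FPKM in the WT-titled library, and Nr2f2 at 2.00 FPKM under the miR-7KD title and 2.81 FPKM under the WT title. Nr2f6 went the other way at 4.48 FPKM under the miR-7KD title and 3.06 FPKM under the WT title, a log2 ratio of 0.54. None of the 3 reached 2-fold. A 4-exon unannotated transcript on the strand of Nr2f1 was at 5.02 FPKM in the miR-7KD-titled library and listed at 0 in the WT-titled library, and with it added the log2 ratio of Nr2f1 was 1.39.

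Retinoic acid receptors (RAR) and retinoid X receptors (RXR, the common partner of many receptors) lay close together in both libraries. Rxra was at 7.46 FPKM in the miR-7KD-titled library and 7.71 FPKM in the WT-titled library. Rxrb was at 7.33 FPKM under the miR-7KD title and 7.38 FPKM under the WT title, and Rxrg, the form most restricted to neurons of the striatum, at 4.08 FPKM under the miR-7KD title and 5.13 FPKM under the WT title. Rara was at 1.65 FPKM under the miR-7KD title and 2.23 FPKM under the WT title, Rarb at 4.81 FPKM under the miR-7KD title and 5.34 FPKM under the WT title, and Rarg at 1.82 FPKM under the miR-7KD title and 1.61 FPKM under the WT title. So 5 of these 6 were nominally lower, each by less than 2-fold. None of 8 listed genes of retinoid supply and response at 1 FPKM or more was at least 2-fold different, against 11.6% of all genes. Their median log2 ratio was −0.19.

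The lipid-sensing receptors showed the same closeness. Ppard, the gene of PPARδ, was at 3.50 FPKM in the miR-7KD-titled library and 4.34 FPKM in the WT-titled library. Nr1h2, the gene of LXRβ, which senses oxysterols, was at 9.9996 FPKM under the miR-7KD title and 10.15 FPKM under the WT title, and Nr1h3, the gene of LXRα, at 0.794 FPKM under the miR-7KD title and 1.07 FPKM under the WT title. Among 9 LXR-responsive genes, 1 was higher and none lower (11.1%, against 11.6% of all genes, with a median of 0.03). It was Scd1, the stearoyl-CoA desaturase, at 49.3 FPKM in the miR-7KD-titled library and 5.31 FPKM in the WT-titled library. Among 10 PPAR-responsive genes, 1 was lower and none higher (10%, against 11.6% of all genes, with a median of 0.10). It was Pdk4, a kinase that restrains pyruvate oxidation, at 2.77 FPKM under the miR-7KD title and 7.43 FPKM under the WT title.

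Nr3c1, the gene of the glucocorticoid receptor, was at 11.3 FPKM in the miR-7KD-titled library and 10.95 FPKM in the WT-titled library. Nr3c2, that of the mineralocorticoid receptor, was at 7.04 FPKM under the miR-7KD title and 7.496 FPKM under the WT title. The steady gene value of Nr3c2 covered unlike transcripts. Nr3c2-001 was at 2.00 FPKM under the miR-7KD title and 4.56 FPKM under the WT title, and Nr3c2-002 at 5.92 FPKM under the miR-7KD title and 3.78 FPKM under the WT title. Of 14 glucocorticoid-responsive genes, 1 was at least 2-fold higher and 2 were lower (21.4% together, against 11.6% of all genes). Their median log2 ratio was 0.01. Fkbp5, which holds the receptor in a low-affinity state, was at 27.3 FPKM in the miR-7KD-titled library and 12.04 FPKM in the WT-titled library. Dusp1, a MAP kinase phosphatase, was at 4.01 FPKM under the miR-7KD title and 10.9 FPKM under the WT title, and Pdk4 was the other lower gene. So the glucocorticoid-responsive genes did not share a direction.

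The NR4A receptors are immediate early genes, switched on rapidly by neuronal activity. Nr4a1 was at 8.17 FPKM in the miR-7KD-titled library and 8.46 FPKM in the WT-titled library, and Nr4a2 at 6.504 FPKM under the miR-7KD title and 6.18 FPKM under the WT title. Nr4a3 was at 1.90 FPKM under the miR-7KD title and 1.07 FPKM under the WT title, the log2 ratio farthest from 0 among the members that did not reach 2-fold. Of 8 other activity-induced genes at 1 FPKM or more, 1 was higher and 1 lower (25% together, against 11.6% of all genes). Ier2 was at 6.29 FPKM in the miR-7KD-titled library and listed at 0 in the WT-titled library, and Junb was at 0.0163 FPKM under the miR-7KD title and 16.5 FPKM under the WT title. Both are short genes with few exons, a kind for which large differences were common in these tables (34.6% of genes with 1 to 3 exons).

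The estrogen-related receptors govern genes of mitochondrial energy supply. Esrra was at 9.79 FPKM in the miR-7KD-titled library and 10.1 FPKM in the WT-titled library. Esrrg was at 4.67 FPKM under the miR-7KD title and 7.30 FPKM under the WT title, the lowest log2 ratio (−0.64) of the members that did not reach 2-fold. Esrrb, at 0.741 FPKM under the miR-7KD title and 0.557 FPKM under the WT title, and Nr6a1, the germ cell nuclear factor, at 0.969 FPKM under the miR-7KD title and 0.763 FPKM under the WT title, stayed under 1 FPKM in both libraries and were in no count.

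None of the 4 coregulators was at least 2-fold different. Ncor1, the corepressor that unliganded thyroid and retinoic acid receptors and REV-ERB proteins recruit, was at 13.5 FPKM in the miR-7KD-titled library and 13.8 FPKM in the WT-titled library. The p160 coactivators bind liganded receptors. Ncoa1 was at 8.94 FPKM under the miR-7KD title and 8.69 FPKM under the WT title, Ncoa2 at 3.30 FPKM under the miR-7KD title and 4.43 FPKM under the WT title, and Ncoa3 at 4.06 FPKM under the miR-7KD title and 4.31 FPKM under the WT title. None of 20 further coregulator genes was at least 2-fold different, against 11.6% of all genes, and their median log2 ratio was −0.12. Ncoa2 holds the ACTTGTT match printed above at 2 places, and its log2 ratio was below 0.

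At the level of transcripts, 75 were listed for 35 members, and 60 of them reached 1 FPKM. Of these 60, 5 were at least 2-fold higher (8.33%, against 12% of all listed transcripts) and 8 were lower (13.3%, against 12.2%). In 3 of the 19 members with several transcripts (15.8%), transcripts differed at least 2-fold in both directions, beside 16.6% of all such genes. Esrrg was the clearest. Esrrg-001 was at 4.74 FPKM in the miR-7KD-titled library and at 0 in the WT-titled library, whereas Esrrg-002 was at 0.495 FPKM under the miR-7KD title and 4.70 FPKM under the WT title and Esrrg-003 at 0.225 FPKM under the miR-7KD title and 4.14 FPKM under the WT title.

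The other members with transcripts in both directions were the ones under 1 FPKM. Nr6a1-001 was at 1.55 FPKM in the miR-7KD-titled library and at 0 in the WT-titled library, and Nr6a1-201 at 0 FPKM under the miR-7KD title and 1.34 FPKM under the WT title. Esrrb-001 was at 0.879 FPKM under the miR-7KD title and 0 FPKM under the WT title, and Esrrb-002 at 0.0394 FPKM under the miR-7KD title and 0.736 FPKM under the WT title. Smaller shifts of this kind were listed too. Nr4a2-001 was at 0.901 FPKM in the miR-7KD-titled library and at 0 in the WT-titled library, beside Nr4a2-003 at 5.49 FPKM under the miR-7KD title and 6.35 FPKM under the WT title. Rara-003 was at 0.272 FPKM in the miR-7KD-titled library and 0.797 FPKM in the WT-titled library, beside Rara-002 at 0.765 FPKM under the miR-7KD title and 0.413 FPKM under the WT title. Where a gene value hardly differed, reads could thus be divided differently among its transcripts. How far this reflects transcript usage or the estimate of shares from few reads was not tested, since no read counts were used here.

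**Figure D3:**
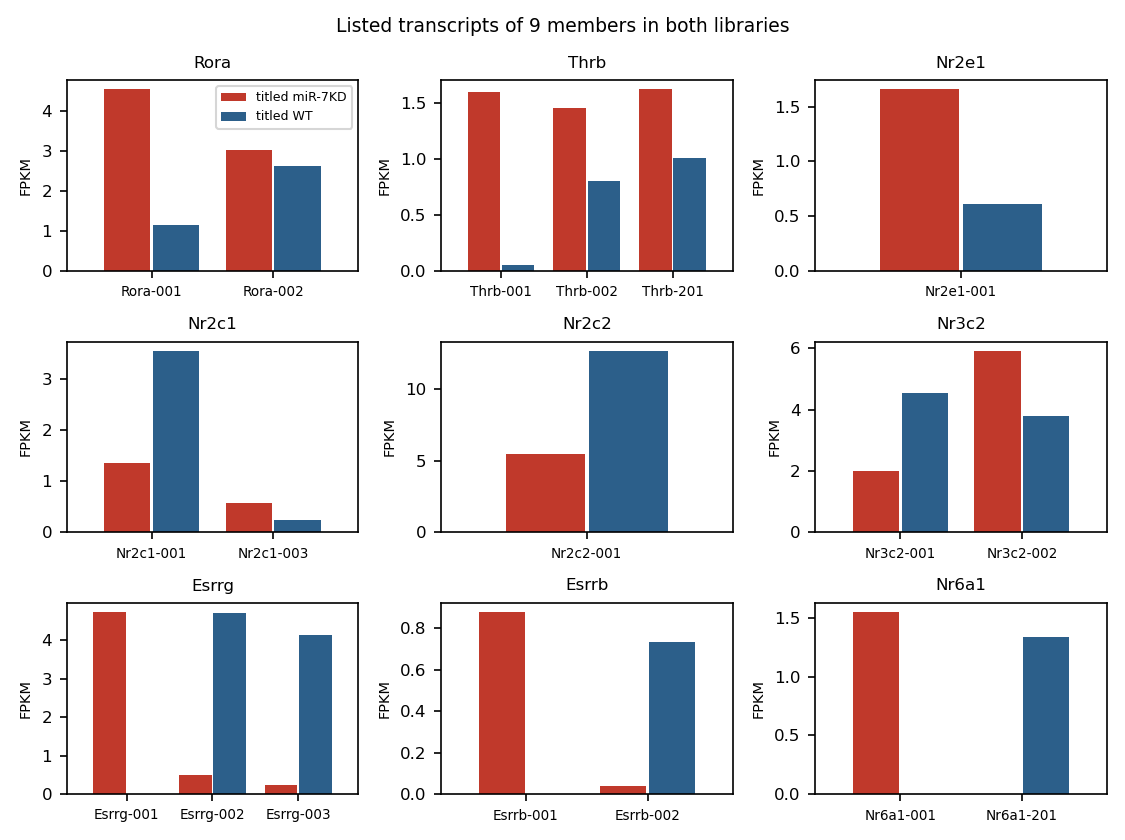
FPKM of the listed transcripts of selected members, with the miR-7KD-titled library and the WT-titled library side by side. Rora-001 stands at 4.56 FPKM under the miR-7KD title and 1.15 FPKM under the WT title while Rora-002 stands at 3.04 FPKM under the miR-7KD title and 2.64 FPKM under the WT title, and the Esrrg transcripts change places between the libraries.

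Each of the 5 members past 2-fold had from 9 to 15 exons in the listed transcript with most exons. Of the 32 members at 1 FPKM or more, 20 had 9 or more exons. Of the 14 members with 9 to 12 exons, 3 were past 2-fold, against 7.6% of all genes in that class. Of the 2 members with 13 to 20 exons, 2 were, against 4.07% of all genes in that class. In the joined range of 9 to 20 exons, 5 of 16 members were past 2-fold, against 5.83% of all genes in it. That range spans the exon numbers of all 5, so its share is a description and not independent evidence. None of the 10 members with 4 to 8 exons was past 2-fold, against 14.3% of all genes in that class. None of the 4 members with 21 or more exons was either, against 2.29% of all genes in that class. Large differences over the whole table were commonest among genes with 1 to 3 exons (34.6%), a class that held 2 members, neither past 2-fold. Of the 4 members with 9 or more exons and a 3′-UTR of at least 4000 bases, Rora, Thrb and Nr2c2 were past 2-fold and Rorb was not, beside 14.4% of all genes of that class. The 3′-UTRs of Nr2e1 (1401 bases) and Nr2c1 (1860 bases) were shorter. These counts are small and no test was made. By level, 1 of 7 members from 1 to 3 FPKM, 4 of 18 from 3 to 10 FPKM and 0 of 7 above 10 FPKM were past 2-fold (all genes: 12.4%, 10.1% and 12.7%).

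**Figure D4:**
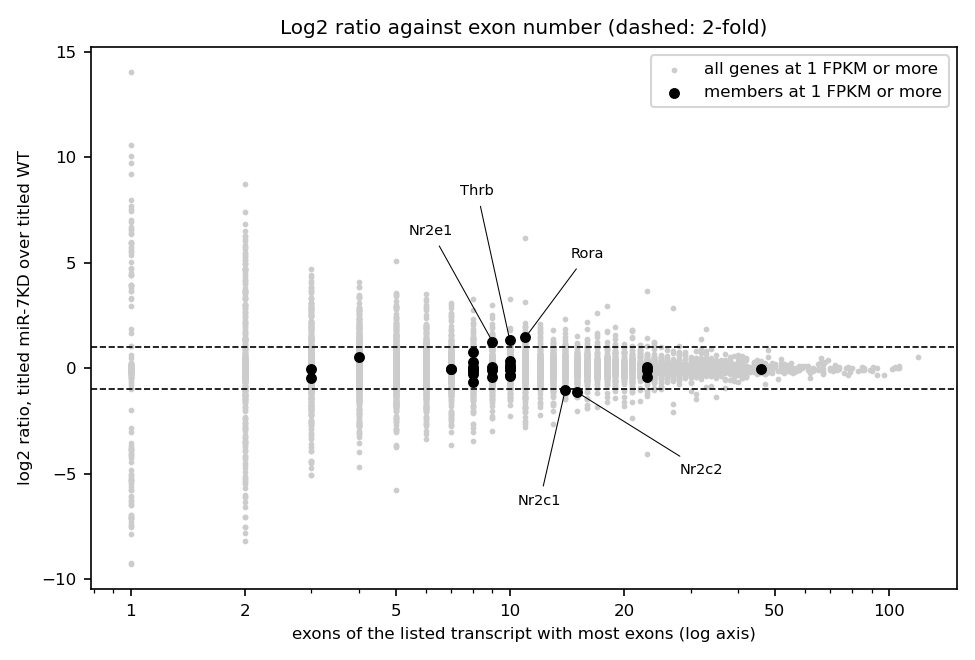
Log2 ratio, the miR-7KD-titled library over the WT-titled library, against the number of exons of the listed transcript with most exons (log axis), for all genes at 1 FPKM or more in grey and the 32 members in black. The spread of all genes narrows as exons increase, and the 5 named members lie outside the dashed 2-fold lines at 9 or more exons.

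Shares of members with a seed match for miR-7 lay on both sides of the shares in all genes. GTCTTCC was found in the 3′-UTR of 4 of the 32 members at 1 FPKM or more (12.5%, against 14.2% of 11883 genes), namely Nr1h2, Nr2c1, Nr4a3 and Esrrg. ACTTGTT was found in 3 (9.38%, against 14.9%), namely Rora, Nr1d2 and Ncoa2. ATTTGTT was found in 9 (28.1%, against 21.1%). With 3′-UTRs of at least 4000 bases, as Rora has, 43% of all genes held ACTTGTT. Neither Thrb nor Nr2e1 nor Nr2c2 held any of these letters in the annotated 3′-UTR. The median log2 ratio was −0.03 for the 3 members with ACTTGTT and −0.04 for the 29 without it. For GTCTTCC it was −0.33 for the 4 members with it and −0.04 for the 28 without it. A match of 7 bases is a description of the sequence and does not show binding.

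Of 91 markers of brain regions and cell types at 1 FPKM or more, 9 were higher by 2-fold or more and 6 were lower (16.5% in both directions together, against 11.6% of all genes). Sums are over every listed marker with a row, and counts over those at 1 FPKM or more. Of 8 cortex markers, 2 were at least 2-fold lower (Tbr1 at 3.88 FPKM in the miR-7KD-titled library and 16.3 FPKM in the WT-titled library, Lamp5 at 19.5 FPKM under the miR-7KD title and 48.1 FPKM under the WT title), and the sum was 71.5 FPKM under the miR-7KD title and 116 FPKM under the WT title. Fezf2 and Cux2 of the same list lay the other way, with log2 ratios of 0.87 and 0.60, and the list's median was −0.30. Of 9 striatum markers, 2 were higher, and the sum was 162 FPKM under the miR-7KD title and 110 FPKM under the WT title. Among them Drd1, the D1 dopamine receptor gene, was at 2.38 FPKM in the miR-7KD-titled library and listed at 0 in the WT-titled library. Ppp1r1b, the other higher one, was at 74.1 FPKM under the miR-7KD title and 30.8 FPKM under the WT title. Adora2a of the same list lay the other way, with a log2 ratio of −0.68, and the list's median was 0.14.

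Rora is known to be strongly expressed in Purkinje cells and thalamus. Among 8 Purkinje cell markers, 2 were higher (Calb1 at 50.8 FPKM in the miR-7KD-titled library and 17.6 FPKM in the WT-titled library, Ppp1r17 at 15.0 FPKM under the miR-7KD title and 3.68 FPKM under the WT title), and the sum was 231 FPKM under the miR-7KD title and 207 FPKM under the WT title. Of the others, 5 had log2 ratios below 0, down to −0.34 (Pcp2), and the list's median was −0.09. Of 5 thalamus markers at 1 FPKM or more none was past 2-fold, and all 8 thalamus markers summed to 20.9 FPKM under the miR-7KD title and 22.3 FPKM under the WT title. Of 8 granule cell markers 1 was higher (sum 109 FPKM under the miR-7KD title and 111 FPKM under the WT title), and of 7 hypothalamus markers none was past 2-fold (sum 75.2 FPKM under the miR-7KD title and 76.2 FPKM under the WT title). Of 6 hippocampus markers, 1 was higher and 1 lower (sum 74.6 FPKM under the miR-7KD title and 58.3 FPKM under the WT title). The median log2 ratio of the hippocampus markers was −0.01.

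By cell type, 1 of 10 neuron markers was higher (sum 692 FPKM in the miR-7KD-titled library and 695 FPKM in the WT-titled library) and 2 of 8 astrocyte markers were lower (416 FPKM under the miR-7KD title and 607 FPKM under the WT title). Of 8 oligodendrocyte markers 1 was higher (601 FPKM under the miR-7KD title and 471 FPKM under the WT title), of 8 microglia markers 1 was lower (109 FPKM under the miR-7KD title and 114 FPKM under the WT title), and of 6 endothelium markers 1 was higher (75.0 FPKM under the miR-7KD title and 51.9 FPKM under the WT title). The last was Cldn5, at 24.7 FPKM in the miR-7KD-titled library and listed at 0 in the WT-titled library. Slc1a2 of the lower astrocyte markers was at 24.5 FPKM under the miR-7KD title and 141 FPKM under the WT title. Gja1, the other, was at 1.15 FPKM under the miR-7KD title and 46.5 FPKM under the WT title. Cldn11, the higher oligodendrocyte marker, was at 131 FPKM under the miR-7KD title and 29.3 FPKM under the WT title. The list medians were −0.10 for astrocytes, 0.15 for oligodendrocytes and 0.14 for endothelium. So single genes weighed heavily in these sums. The shares of the gene lists were set against all genes and not against genes of like exon number. Over the whole table, 34.6% of genes with 1 to 3 exons were past 2-fold. The part of region or cell makeup in the differences of the receptors was not tested.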

How the data were processed

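Brain RNA of 2 libraries, 1 per title, was used. The authors deposited FPKM values per gene, per listed transcript and per unannotated transcript. Bowtie 0.12.2 and mm8 are named in the processing notes of the submitters, whereas the positions in the tables are those of GRCm38. The sources used here give neither the FPKM program nor read totals, so the depth is unknown and no interval could be given. Annotation was taken from GENCODE M21 and RefSeq. Log2 ratios were computed as log2 of the miR-7KD-titled library over the WT-titled library, each with 0.1 FPKM added, where the larger of both values was at least 1 FPKM. A gene was called at 2-fold, as in the study. With 1 library per title no test was made.

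The members and the gene lists were chosen with earlier results of these data known, and the photoreceptor list was added after the tables were seen. Every member with a row was named, with transcripts given for Rora, for members past 2-fold, and for members with transcripts at least 2-fold different in both directions. Of each other list, up to 4 genes past 2-fold were eligible. Other genes (Arntl, Dbp, Pcp2, Fezf2, Cux2 and Adora2a) and the transcripts of Thra, Nr3c2, Nr4a2 and Rara were chosen after their values were seen. The calls were run on simulated data with large changes and little noise, which checks the code and not the calls in these libraries. Alternatives were the added constant, the minimum level, the fold, rescaling, transcript sums and adding unannotated transcripts. Scripts used Python 3.11.15, numpy 2.4.6, pandas 2.3.3 and matplotlib 3.10.9.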

Additional observations from a re-analysis of the deposited data

Results flagged for a closer look

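Unannotated transcripts are listed in a separate table on which the counts of members past 2-fold do not rest. Of 35 such entries over the members, 11 had a value in the miR-7KD-titled library and were listed at 0 in the WT-titled library, and none was the other way round. Over all 10238 unannotated transcripts, 9.15% were at 0 in the miR-7KD-titled library and 12.7% in the WT-titled library.

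On its own strand, 6 single-exon entries lay inside Rora, at 1.71, 1.58, 1.61, 1.33, 1.30 and 1.21 FPKM in the miR-7KD-titled library and at 0 in the WT-titled library. On the strand of Nr2f1 a 4-exon entry, which overlaps the gene and runs past both of its ends, was at 5.02 FPKM in the miR-7KD-titled library, against 0 in the WT-titled library. Multi-exon entries on the strand of the gene were at 1.98 FPKM for Nr3c1, 1.60 FPKM for Ncor1 and 1.19 FPKM for Nr3c2, each against 0 in the WT-titled library. On the strand opposite to Nr2f2 a single-exon entry of 408 bases was at 1.47 FPKM, against 0. The origin of these entries was not tested.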

How the results depend on the processing

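No paired analysis was possible because each title has 1 library and the numbers 3 and 7 are not shared, and for the same reason no replicate could be left out. Of the 3 members at least 2-fold higher, 1 (Rora) was left when 1 FPKM was added, 0 with a minimum of 5 FPKM (which none of the 3 reached) and 0 at 3-fold. With transcript sums 2 members were higher (Thrb and Nr2e1, without Rora), and with unannotated transcripts added 4 were (Nr2f1 besides the 3). Of the 2 members lower, 0 were left when 1 FPKM was added and 0 at 3-fold. With a minimum of 5 FPKM, with transcript sums and with unannotated transcripts added, 1 was left (Nr2c2 each time). The shares of all genes differed between settings too. With the main setting 6.01% were higher and 5.58% lower, and with 1 FPKM added 4.34% and 4.0%. With a minimum of 5 FPKM these shares were 6.03% and 5.58%, and at 3-fold 3.28% and 3.07%. They were 6.57% and 6.3% with transcript sums, and 7.06% and 6.41% with unannotated transcripts added. The median log2 ratio of the members was −0.033 with 1 FPKM added, −0.031 with no minimum, −0.032 with a minimum of 5 FPKM, −0.028 after rescaling and −0.017 with unannotated transcripts added. The log2 ratio of Rora was 1.51 with 0.01 FPKM added, 1.09 with 1 FPKM added, 1.47 after rescaling, 0.98 as a transcript sum and 3.00 with unannotated transcripts added. It had no value with a minimum of 5 FPKM, which Rora did not reach. The value of 3.00 adds separate single-exon stretches, each scaled to its own length, and does not stand for a level of Rora transcripts. No single member reversed past the threshold. Of 209 values of single members under these alternatives, 200 kept their direction and 201 stayed on the same side of 2-fold. With no minimum or a minimum of 5 FPKM, single values equal the main ones by construction, and rescaling shifts all members alike. So these counts are no measure of robustness. The cause of these shifts was not tested beyond the construction of each alternative.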

Other observations

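Among mouse nuclear receptors outside the member list, Pparg, the gene of the fat-cell receptor PPARγ, was at 1.21 FPKM in the miR-7KD-titled library and 0.952 FPKM in the WT-titled library. Pgr, the progesterone receptor gene, was at 0.485 FPKM in the miR-7KD-titled library and 0.510 FPKM in the WT-titled library. Neither of these genes was at least 2-fold different.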
